A study of Mus musculus with 6 samples.

Results

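The voltage-gated calcium channel, voltage-gated sodium channel and hyperpolarization-activated cyclic nucleotide-gated (HCN) channel genes of the mouse retina were compared between Atrx conditional knockout and wildtype animals. Members were the array's probe sets whose annotation carried exactly 1 gene symbol beginning with Cacna1, Cacna2d, Cacnb or Cacng, or made of Scn, a number and a or b, or of Hcn and a digit. This gave 42 of 41345 probe sets, which stand for 39 genes. There were 10 pore-forming calcium channel genes (Cacna1), 4 alpha2delta genes (Cacna2d), 3 beta genes (Cacnb), 8 gamma genes (Cacng), 8 sodium channel pore genes, 3 sodium channel beta genes and 3 HCN genes.

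RNA of whole retina, pooled from both eyes of male mice at postnatal day 17, was hybridised to Affymetrix mouse gene arrays. The 3 knockout animals were Chx10Cre+/-;Atrx flox/y and the 3 wildtype animals were Chx10Cre-/-;Atrx flox/y, so all 6 carried a floxed copy of Atrx, an X-linked chromatin remodeller gene, and those without Cre served as controls. Chx10 is a transcription factor of retinal progenitors and bipolar cells, and its regulatory sequences drive the Cre recombinase. Presence of Cre and loss of Atrx coincide in these groups and cannot be told apart. By the series' design text, amacrine and horizontal cells, the inhibitory interneurons of the retina, degenerate most at this age, and the comparison asks which genes differ then.

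Voltage-gated calcium and sodium channels open when a neuron depolarises. Calcium channels couple voltage to transmitter release: a pore subunit carries the current, and alpha2delta and beta subunits bring it to the membrane and tune it. Photoreceptors and bipolar cells release glutamate tonically at ribbon synapses through L-type calcium channels, whereas sodium channels carry the spikes of ganglion cells and of many amacrine cells. Most genes named Cacng encode transmembrane AMPA receptor regulatory proteins (TARPs), which traffic and gate AMPA-type glutamate receptors rather than calcium channels. HCN channels open on hyperpolarisation and shorten light responses.

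Across the arrays, the tissue label was borne out by rod markers, whose mean log2 value over 10 tested genes lay between 11.62 and 11.74. One array of each group was rich in lens RNA: averaged over 14 lens markers, knockout 2 stood at 9.91 and wildtype 1 at 11.24, and the other 4 arrays at 5.91 to 6.32. The mean of 11 amacrine markers was 6.84, 7.04 and 6.69 on knockout arrays 1 to 3 and 7.40, 7.44 and 7.53 on wildtype arrays 1 to 3, and all 11 had log2 changes below 0. The mean of 6 horizontal cell markers was 7.23, 7.18 and 7.00 against 7.31, 7.35 and 7.38. The part of these differences in the results on channels was not tested, and in whole retina fewer cells of a type and less RNA per cell cannot be told apart. Atrx itself had a log2 change of -0.53 (SE 0.124), with an adjusted p of 0.115 in limma's test.

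No channel gene passed the test between genotypes, and most had slightly lower values in knockout retina. Genes entered the test when 3 or more of the 6 arrays showed a log2 value of 5 or higher, which left 35 of the 39 channel genes among 15619 genes in all. At a Benjamini-Hochberg adjusted p under 0.05 in limma's test, 0 of 35 channel genes were called, where 0.826% of all tested genes were. At an unadjusted p under 0.05 there were 7 channel genes, 20% of 35 beside 13.5% of all genes. Of these, 6 were lower in knockout (6.5% of all genes were) and 1 was higher (6.99% of all genes were). Log2 changes were below 0 for 28 of 35 channel genes, 80%, beside 49.1% of all genes. Their median log2 change was -0.10, beside 0.00 over all genes tested, and the range ran from -0.55 for Cacng4 to 0.34 for Scn7a. All 3 knockout values lay below all 3 wildtype values for 6 channel genes (9.58% of all genes did) and above them for 1 (10.7% of all genes did). The median 95% interval of a channel gene reached 0.22 to each side of its estimate on the log2 scale, which is wider than most of the differences.

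**Figure D1:**
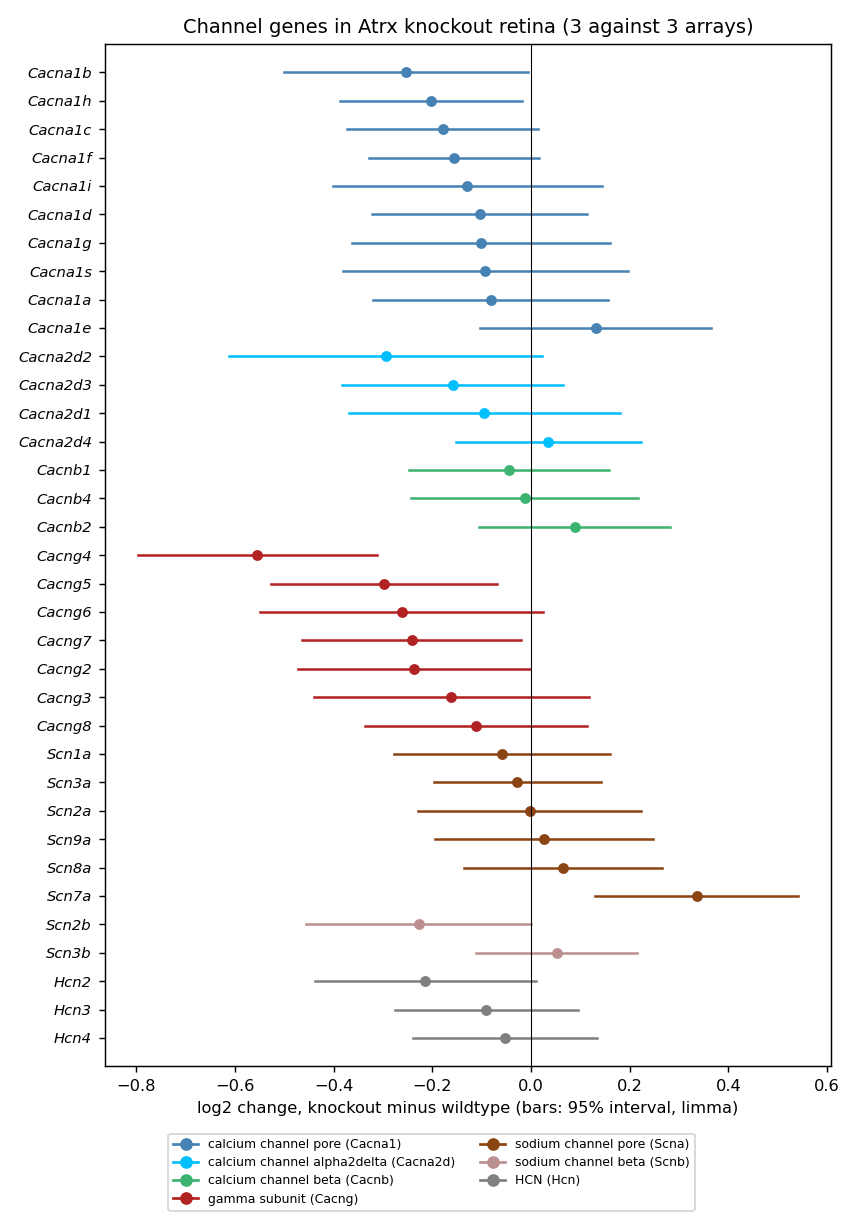
Log2 change of each of the 35 tested channel genes, knockout minus wildtype, with its 95% interval from limma (3 arrays per group); genes are grouped and coloured by subunit family. All 7 gamma subunit genes and 9 of 10 pore-forming calcium channel genes lie left of 0, and the sodium channel pore genes lie close to 0 except Scn7a at 0.34.

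**Figure D2:**
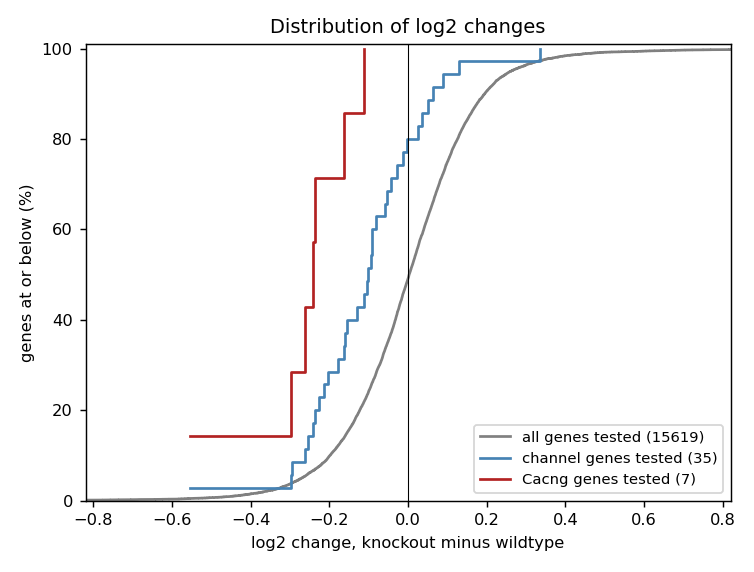
Cumulative share of genes (vertical axis, percent) at or below a given log2 change, knockout minus wildtype, for all 15619 genes tested, the 35 channel genes and the 7 gamma subunit genes; the few genes with changes beyond the horizontal axis are not drawn. At 0 the curve of all genes stands at 49.1% and that of channel genes at 80%.

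The gamma subunit genes held the channel gene nearest to the threshold. Of the 8 Cacng genes 7 were tested, all 7 had log2 changes below 0 and none was called. Their median log2 change was -0.24, and 4 of 7 were lower at an unadjusted p under 0.05, as 6.5% of all genes were. Cacng4, a TARP gene, had log2 values of 8.58, 8.94 and 8.69 on knockout arrays 1 to 3 and 9.21, 9.35 and 9.31 on wildtype arrays 1 to 3. The highest knockout value, on the lens-rich array, was still below every wildtype value. The means were 8.74 ± 0.19 and 9.29 ± 0.08 (SD, n = 3 per group), a 1.47-fold difference with a log2 change of -0.55 (SE 0.106, 95% interval -0.80 to -0.31). Limma's test gave an unadjusted p of 0.0007 and an adjusted p of 0.0647, short of a call. An exact permutation test over the 6 arrays gave 0.1, which is the least it can give with 3 per group. Without knockout 2 the log2 change was -0.66 and the adjusted p 0.0267, while without any other single array the adjusted p lay between 0.156 and 0.276. The gene was also called with a log2 floor of 6 (adjusted p = 0.0326), a second quantile normalization (0.0441), arrays centred on their medians (0.0493), an intensity trend (0.0151) and array weights (0.0384).

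Cacng5 and Cacng7 encode the TARPs of the second type. Cacng5 had values of 7.66, 7.50 and 7.45 in knockout and 7.68, 7.97 and 7.86 in wildtype retina. The groups did not overlap, though knockout 1 and wildtype 1 were nearly level. The log2 change was -0.30 (SE 0.10, adjusted p = 0.259). Cacng7 stood at 10.77, 10.60 and 10.82 in knockout and 10.99, 11.09 and 10.84 in wildtype retina. These values did not overlap either, with knockout 3 and wildtype 3 almost equal, and the log2 change was -0.24 (SE 0.0969, adjusted p = 0.331).

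Cacng2, also called stargazin, is the TARP in which the family's role was found, and it has 2 probe sets. On the brighter one the values were 7.35, 7.63 and 7.38 in knockout and 7.57, 7.72 and 7.78 in wildtype retina, with knockout 2 above wildtype 1. Its log2 change was -0.24 (SE 0.103, adjusted p = 0.368), and without both lens-rich arrays it was -0.39 (SE 0.0929, adjusted p = 0.202). On the dimmer one the values were 5.93, 5.86 and 5.95 against 5.98, 6.27 and 6.35, which did not overlap, a log2 change of -0.29. Both probe sets therefore had lower knockout means, by a similar amount.

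The other gamma genes had smaller or less certain differences. Cacng3 and Cacng8, 2 more TARP genes, had log2 changes of -0.16 (adjusted p = 0.602) and -0.11 (adjusted p = 0.656), with overlapping groups. Without both lens-rich arrays Cacng3 was at -0.30 (adjusted p = 0.405) and Cacng8 at -0.17 (adjusted p = 0.513). Cacng6, of the subgroup tied to calcium channels of muscle, was dim, between 4.79 and 5.36, with a log2 change of -0.26 (adjusted p = 0.404), and -0.11 (adjusted p = 0.726) without both lens-rich arrays. Cacng1, the gamma subunit of skeletal muscle, was below the brightness filter on all 6 arrays (4.54 to 4.79). Skeletal muscle markers were also low, with 4 of 11 too dim to test and a mean over the other 7 between 5.64 and 5.84.

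Several of these genes lie side by side in the genome. In RefSeq's gene order for GRCm38.p6, Cacng1, Cacng4 and Cacng5 follow each other on chromosome 11 with no other coding gene between them, and Cacng7, Cacng8 and Cacng6 do so on chromosome 7. The 5 tested genes of these clusters had log2 changes from -0.55 to -0.11. Cacng2 and Cacng3, gamma genes outside these clusters, were within that range at -0.24 and -0.16. On chromosome 6, Cacna1c and Cacna2d4 have 1 coding gene between them (-0.18 and 0.04). A tie between position and change was not tested. On chromosome 2, Scn3a and Scn2a adjoin (-0.03 and 0.00), and Scn1a, Scn9a and Scn7a adjoin (-0.06, 0.03 and 0.34), so the largest positive change among the channels sat beside genes with changes close to 0.

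The 250 bases before the transcription start are shown for Cacng5 and Cacng2, gamma genes with lower knockout means, and for Scn7a, the gene with the largest change in the other direction. They come from RefSeq (GRCm38.p6; the build behind the array annotation is not given in the sources used here), all on the minus strand and written 5′ to 3′, with CG dinucleotides in capitals. Where the table holds several starts, the one farthest upstream was taken. The windows are chr11:107915056-107915305 for Cacng5, chr15:78119281-78119530 for Cacng2 and chr2:66784911-66785160 for Scn7a.
Cacng5: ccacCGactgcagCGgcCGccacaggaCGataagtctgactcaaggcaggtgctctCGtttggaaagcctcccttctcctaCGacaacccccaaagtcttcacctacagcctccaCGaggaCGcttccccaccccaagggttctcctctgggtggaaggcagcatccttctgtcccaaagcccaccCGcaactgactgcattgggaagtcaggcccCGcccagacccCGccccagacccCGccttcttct
Cacng2: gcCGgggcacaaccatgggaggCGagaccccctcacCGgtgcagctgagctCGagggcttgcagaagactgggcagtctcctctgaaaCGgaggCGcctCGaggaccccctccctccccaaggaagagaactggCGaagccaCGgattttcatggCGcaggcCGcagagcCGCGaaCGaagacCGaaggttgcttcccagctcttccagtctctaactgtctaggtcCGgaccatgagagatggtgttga
Scn7a: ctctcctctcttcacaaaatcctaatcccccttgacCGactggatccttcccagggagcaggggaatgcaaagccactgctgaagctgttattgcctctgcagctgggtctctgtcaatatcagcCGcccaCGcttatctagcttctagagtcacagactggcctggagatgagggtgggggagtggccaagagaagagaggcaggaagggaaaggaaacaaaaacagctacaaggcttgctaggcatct

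The windows of Cacng5 and Cacng2 held 12 and 16 CG dinucleotides and that of Scn7a held 3. A window was found for 30 of the 39 channel genes, with a median of 9 CG dinucleotides (range 0 to 37), beside a median of 14 over 12146 tested genes with a window. The GC box GGGCGG, read on both strands, was in 14 of the 27 windows of tested channel genes (51.9%, beside 54.7% of tested genes), Cacng5 and Scn7a among them. The letters TATAAA, on either strand, were in 1 of 27 (3.70%, beside 7.66%). The letters TAATCC, a core bound by photoreceptor homeodomain factors, were in 3 of 27 (11.1%, beside 5.48%), which were Cacna1s, Cacng8 and Scn7a. A match is a description of letters and not of a binding site.

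Among the pore-forming calcium channel genes, 9 of 10 had log2 changes below 0, none was called, and the median log2 change was -0.12. Cacna1h, a low-voltage-activated T-type channel, had values of 7.48, 7.66 and 7.50 in knockout and 7.75, 7.78 and 7.72 in wildtype retina. The groups did not overlap, and the wildtype arrays were tightly spaced. The log2 change was -0.20 (SE 0.0803, adjusted p = 0.324). The other T-type genes, Cacna1g and Cacna1i, had log2 changes of -0.10 and -0.13 with all groups overlapping, and without both lens-rich arrays each was at -0.26 (adjusted p = 0.338 and 0.389).

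The L-type genes include the channel of photoreceptor terminals. Cacna1f, its pore subunit, had values of 9.55, 9.68 and 9.56 in knockout and 9.77, 9.71 and 9.77 in wildtype retina. No knockout value reached a wildtype value, but the gap between knockout 2 and wildtype 2 was small. The log2 change was -0.16 (SE 0.0750, 95% interval -0.33 to 0.02, adjusted p = 0.406). Rod markers had a median log2 change of 0.08. Cacna1c, the L-type channel of heart and brain, stood at 6.48, 6.43 and 6.30 against 6.61, 6.65 and 6.49. These groups also did not overlap, with a log2 change of -0.18 (SE 0.0845, adjusted p = 0.400). Cacna1d, an L-type channel that opens at more negative voltages, had values of 7.01, 7.12 and 6.91 in knockout and 7.16, 6.97 and 7.22 in wildtype retina. Its groups overlapped and the log2 change was -0.10 (SE 0.0952, adjusted p = 0.670). Cacna1s, the L-type channel of skeletal muscle, lay between 5.61 and 6.09 on all arrays, with a log2 change of -0.09.

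The presynaptic calcium channels of conventional synapses include the pore gene with the lowest log2 change, Cacna1b, which was not called. Cacna1b, the N-type channel, had values of 6.80, 7.16 and 6.94 in knockout and 7.24, 7.11 and 7.30 in wildtype retina. Knockout 2 was above wildtype 2, so the groups overlapped. The log2 change was -0.25 (SE 0.108, 95% interval -0.50 to -0.01), with an unadjusted p of 0.0453 and an adjusted p of 0.361. Cacna1a, the P/Q-type channel, had a log2 change of -0.08 (adjusted p = 0.769), and -0.20 without both lens-rich arrays (adjusted p = 0.426). Cacna1e, the R-type channel, was the exception in sign at 0.13 (adjusted p = 0.617). Its values were 5.46, 5.77 and 5.46 in knockout and 5.38, 5.44 and 5.47 in wildtype retina. The higher knockout mean rested on the lens-rich array, knockout 2, and without both lens-rich arrays the change was 0.00.

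**Figure D3:**
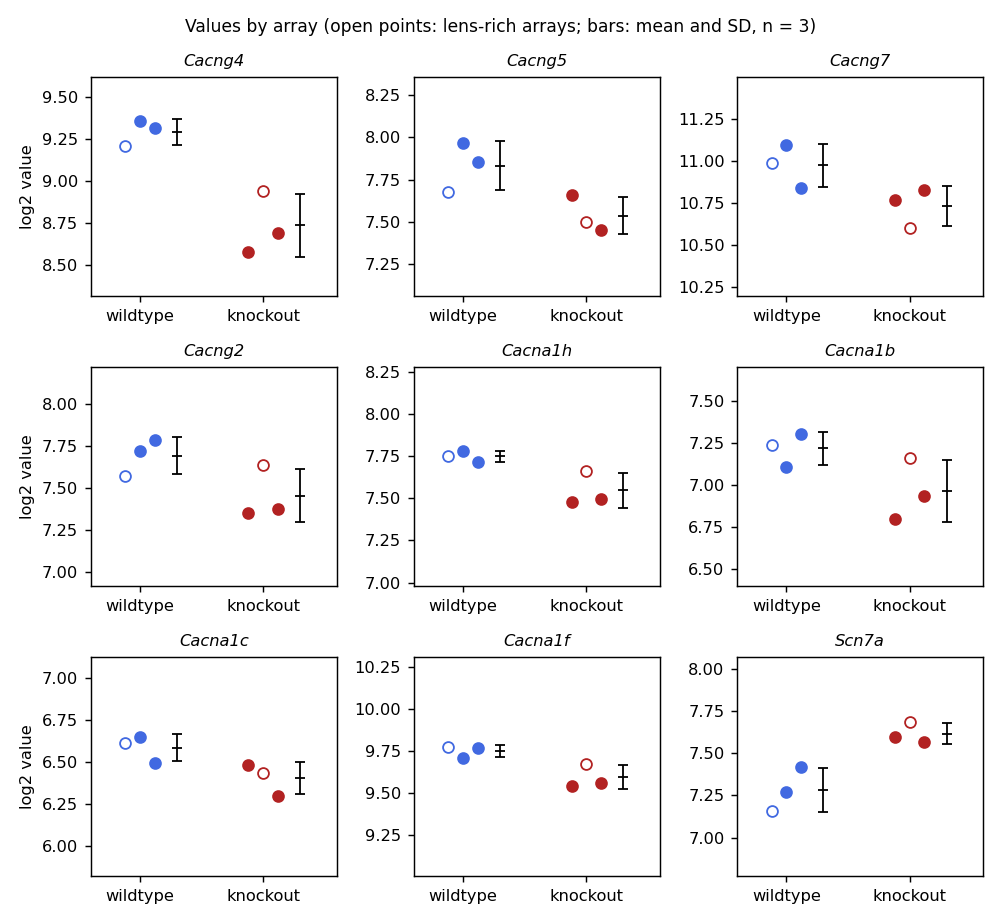
Log2 values of 9 channel genes on each array (vertical axis, each panel spanning 1.3 log2 units), wildtype in blue and knockout in red, with the mean and SD of 3 arrays beside the points; open points mark the lens-rich arrays, knockout 2 and wildtype 1. Cacng4 and Scn7a have the widest gaps between groups, whereas single points of Cacng2 and Cacna1b overlap.

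The auxiliary subunits of the photoreceptor calcium channel were nearly level between genotypes. Cacna2d4, the alpha2delta subunit of photoreceptors and bipolar cells, had values of 10.56, 10.42 and 10.42 in knockout and 10.41, 10.38 and 10.51 in wildtype retina. The groups were interleaved, and the log2 change was 0.04 (SE 0.0814, 95% interval -0.15 to 0.22, adjusted p = 0.887). Cacnb2, the beta subunit of the same channel, stood at 9.75, 9.71 and 9.57 against 9.55, 9.54 and 9.69 on its brighter probe set. These overlapped as well, with a log2 change of 0.09 (SE 0.0844, 95% interval -0.10 to 0.28, adjusted p = 0.682), and the dimmer probe set gave 0.11.

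Of the other alpha2delta genes, Cacna2d2 had the lowest estimate, and it varied most within the knockout group. Its values were 8.22, 8.48 and 7.91 in knockout and 8.41, 8.50 and 8.59 in wildtype retina. Knockout 2 lay among the wildtype values and knockout 3 was the lowest of all arrays. The log2 change was -0.29 (SE 0.138, adjusted p = 0.398), and -0.48 (SE 0.128, adjusted p = 0.231) without both lens-rich arrays. Cacna2d1 and Cacna2d3, with overlapping groups, had log2 changes of -0.09 (adjusted p = 0.769) and -0.16 (adjusted p = 0.517). The beta genes Cacnb1 and Cacnb4 were at -0.04 and -0.01, and the second, dimmer probe set of Cacnb4 was at 0.00.

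Of the sodium channel pore genes 6 of 8 were tested, with 3 changes on each side of 0 and a median of 0.01. The 3 main sodium channels of central neurons gave changes near 0 on all 6 arrays. Scn1a had values of 7.56, 7.64 and 7.55 in knockout and 7.46, 7.72 and 7.75 in wildtype retina, with a log2 change of -0.06 (SE 0.0957, 95% interval -0.28 to 0.16). Scn2a stood at 7.80, 8.04 and 7.73 against 7.81, 7.82 and 7.94, with a log2 change of 0.00 (SE 0.0985, 95% interval -0.23 to 0.22). Scn8a, the channel of mature axon initial segments, had values of 7.89, 8.13 and 7.92 in knockout and 7.88, 7.90 and 7.97 in wildtype retina, a log2 change of 0.06 (SE 0.0878, 95% interval -0.14 to 0.27). For all 3 genes the groups overlapped, and the adjusted p-values were 0.825, 0.994 and 0.784. Without both lens-rich arrays Scn1a was at -0.18, Scn2a at -0.12 and Scn8a at -0.03 (adjusted p = 0.467, 0.656 and 0.928 in limma's test). The mean of 8 ganglion cell markers lay between 9.11 and 9.21 on knockout arrays and 9.24 and 9.29 on wildtype arrays.

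Scn7a was the channel gene with the largest positive difference. It encodes an atypical member of the sodium channel family that responds to sodium concentration rather than voltage and is found in glia. Its values were 7.60, 7.69 and 7.57 in knockout and 7.16, 7.27 and 7.42 in wildtype retina. Every knockout array was above every wildtype array. The means were 7.62 ± 0.06 and 7.28 ± 0.13 (SD, n = 3 per group), a 1.26-fold difference with a log2 change of 0.34 (SE 0.0896, 95% interval 0.13 to 0.54). In limma's test the adjusted p was 0.159, and it lay between 0.0916 and 0.468 in all 16 alternatives. Muller glia markers, 9 genes, had means of 9.82, 9.85 and 9.76 on knockout and 9.79, 9.76 and 9.76 on wildtype arrays. Single markers went both ways, 5 above 0 and 4 below, from 0.44 for Abca8a to -0.22 for Vim. At an unadjusted p under 0.05 in limma's test, 2 were higher (6.99% of all genes were) and 1 lower (6.5% of all genes were). A tie between these markers and Scn7a was not tested.

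The remaining sodium channel genes were Scn3a (log2 change -0.03) and Scn9a (0.03), both with overlapping groups, and Scn10a and Scn11a, channels known from sensory ganglia, which were below the filter (3.75 to 5.00). Among the beta subunits, which anchor and tune the pore, Scn2b had values of 7.74, 7.98 and 7.64 in knockout and 8.00, 8.07 and 7.97 in wildtype retina. Knockout 2 was just above wildtype 3, and the log2 change was -0.23 (SE 0.0995, adjusted p = 0.370, unadjusted p = 0.0507). Scn3b was at 0.05 (adjusted p = 0.787), and Scn4b was too dim to test (4.10 to 4.73).

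All 3 HCN genes had log2 changes below 0 and none was called. Hcn2 had values of 6.51, 6.40 and 6.28 in knockout and 6.61, 6.48 and 6.74 in wildtype retina. Knockout 1 exceeded wildtype 2, and the log2 change was -0.21 (SE 0.0977, 95% interval -0.44 to 0.01, adjusted p = 0.389). Hcn3 and Hcn4 had overlapping groups with log2 changes of -0.09 (adjusted p = 0.662) and -0.05 (adjusted p = 0.810).

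Channel values within a group differed between arrays in a recurring way. Knockout 2 had the highest of the 3 knockout values for 23 of 35 tested channel genes and knockout 3 the lowest for 20. Wildtype 3 had the highest of the 3 wildtype values for 22 genes. These ranks were not counted over all genes, so whether they are particular to channel genes was not tested. The median difference of a channel gene from its wildtype mean was -0.11, -0.02 and -0.19 on knockout arrays 1 to 3. It was -0.04, -0.01 and 0.06 on wildtype arrays 1 to 3, so knockout 2, which is lens-rich, was within the range of the wildtype arrays. For the gamma genes the same medians were -0.20, -0.33 and -0.31 on the knockout arrays and -0.09, 0.06 and 0.02 on the wildtype arrays, and knockout 2 did not stand apart there.

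Without knockout 2 and wildtype 1, 2 arrays were left in each group. The median log2 change of the channel genes was then -0.17, where leaving out knockout 2 alone gave -0.16 and knockout 3 alone -0.05. In these 4 arrays 0 of 35 channel genes were called (0.23% of all genes were), and Cacng4 was at -0.70 (SE 0.0972, adjusted p = 0.0635). Compared with all 6 arrays, the log2 change was over 1.5 times larger in size for 13 of the 35 genes and over 1.5 times smaller for 6, and 11 of these 19 had changes under 0.1 in size on all 6 arrays. All 9 channel genes with an unadjusted p under 0.05 were lower in knockout (7.36% of all genes were). Both knockout values lay below both wildtype values for 21 of 35 channel genes (24.2% of all genes did) and above them for 1 (20.8% of all genes did). The count of 7 genes at an unadjusted p under 0.05 on 6 arrays became 13 without knockout 2 and 4 without any other single array.

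**Figure D4:**
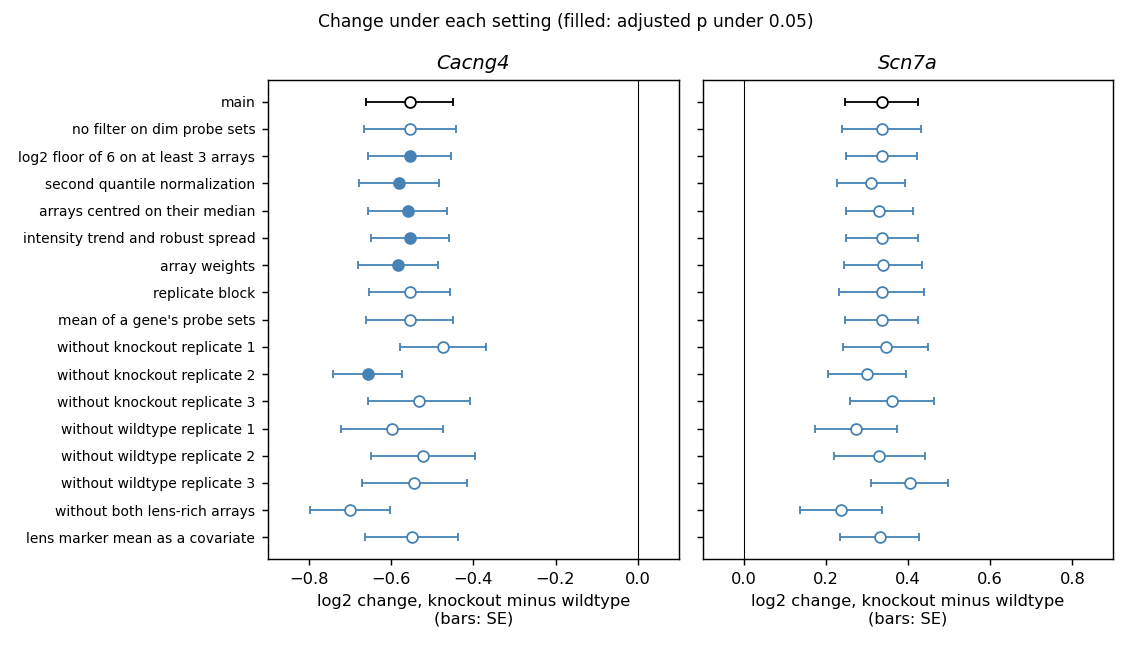
Log2 change of Cacng4 and of Scn7a, knockout minus wildtype, with SE bars, with the chosen settings (main, black) and under each of 16 alternatives (blue); filled points have an adjusted p under 0.05. Cacng4 ran from -0.70 to -0.47 and was called in 6 alternatives, and Scn7a ran from 0.24 to 0.40 and was called in none.

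Tested probe set by probe set, 38 of the 42 channel probe sets passed the filter. None was called among 25961 probe sets (0.285% of all probe sets were), the smallest adjusted p was 0.173, and 5 had an unadjusted p under 0.05 (10.8% of all probe sets did).

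Genes listed as partners of these channels also gave no call in any of 3 lists, where 0.826% of all tested genes were called. Of 21 listed calcium channel partners 17 were tested, 10 with log2 changes below 0 and a median of -0.06. Stac2, an adaptor that keeps L-type channels at the membrane, was nearest to the threshold at -0.47 (SE 0.0872, adjusted p = 0.0583). Gem, a small GTPase that inhibits calcium channels, was at 0.24 (adjusted p = 0.189). Rimbp2, which tethers channels to release sites, was at -0.18 and the GTPase Rrad at -0.11. Of the 17, 1 gene was lower (6.5% of all genes were) and 1 higher (6.99% of all genes were) at an unadjusted p under 0.05.

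Of 16 listed sodium channel partners 14 were tested and 13 had log2 changes below 0, with a median of -0.15. Lower values at an unadjusted p under 0.05 were found for 5 of 14 (6.5% of all genes) and higher values for none. Fgf14, an intracellular factor that binds sodium channel tails, was at -0.42 (SE 0.106, adjusted p = 0.140) and Cntn1, a cell adhesion protein, at -0.34 (adjusted p = 0.174). Ank3, the scaffold of axon initial segments, was at -0.31 (adjusted p = 0.299). Nalcn, a sodium leak channel outside the Scn family, was at -0.27 (adjusted p = 0.266). The list also holds Unc79 (-0.13) and Unc80 (-0.17), subunits of the Nalcn channel, so its counts are not of Scn partners alone. Of 8 HCN channel partners 6 were tested, 4 of them below 0. Pex5l, a subunit that regulates HCN trafficking, was at 0.21 (adjusted p = 0.267), Kcne2 at -0.25 (adjusted p = 0.195), Vapb at -0.12 and Flna at -0.17.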

How the data were processed

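Log2 expression values per probe set were deposited by the authors, and the submitters' processing notes name RMA, a method that subtracts background, equalises array distributions by quantiles and condenses the probes of a set into 1 value. For its version and for the genome build, the sources used here give nothing. The log base was taken from the range of the values, with array medians from 5.57 to 5.64. Probe sets were named from the platform annotation (23521 with 1 symbol, 1814 with several, 16010 with none); all 39 channel genes matched RefSeq (GRCm38.p6) by gene identifier. A gene with several probe sets past the filter took its values from the brightest on average. Genotypes were compared with limma 3.58.1 under R 4.3.3 (default moderated test, genotype as the only term, 2-sided), with adjustment over all 15619 genes. Figures used matplotlib 3.10.9.

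The channel genes, lists and alternatives were chosen with earlier results of these data known. Given with every array's value are channel genes with an unadjusted p under 0.05 or non-overlapping groups and a fixed set (Cacna1f, Cacna1d, Cacna2d4, Cacnb2, Hcn2, Scn1a, Scn2a, Scn8a); those of Cacna2d2, Scn2b and Cacna1e, and the values of other channel genes under single alternatives, were added after their values were seen. Partners named are the 4 of each list with the smallest p, and Unc79 and Unc80. Retinal pigment epithelium (10 genes tested), cone (9), bipolar (9), microglia (6) and endothelial (6) markers had array means from 8.91 to 10.16, 8.85 to 9.09, 8.43 to 8.59, 6.22 to 6.39 and 7.53 to 7.68. The pigment epithelium mean was lowest on knockout 1 (8.91), followed by wildtype 1 (9.38). On simulated data with 15619 genes, calls were made for 40 of 100 genes shifted by 0.5 and for 97 of 100 shifted by 1 (log2), beside 7 false calls. The simulated noise was drawn for each gene alone from limma's fitted spread, without lens-rich arrays or shifts shared between genes. These shares therefore do not give the power on the real arrays. Quantile normalization hides changes in total RNA, and background compresses folds of dim probe sets. The number of arrays limits the precision.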

Additional observations from a re-analysis of the deposited data

How the results depend on the processing

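Over 16 alternatives, 28 of 35 channel genes kept the sign of their log2 change in each one in which they were tested, and 13 of 555 values of single genes had the other sign, all of them with an unadjusted p above 0.05 in both settings. The count of all genes called (129) became 74 with no filter on dim probe sets, 209 with a log2 floor of 6, 282 with an intensity trend and robust spread, and 36 without both lens-rich arrays. It ran from 25 to 141 with 1 array left out. One channel gene (1, Cacng4) was called with a floor of 6, a second quantile normalization, centred arrays, an intensity trend and array weights, and 0 to 1 with 1 array left out. The count at an unadjusted p under 0.05 (7) was 12 with a second quantile normalization and 4 to 13 with 1 array left out. The median log2 change (-0.10) was -0.17 without both lens-rich arrays, and with 1 array left out it ran from -0.16 without knockout 2 to -0.05 without knockout 3, with -0.07 without wildtype 3. Why these values moved was not tested.

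With the replicate number as a block, 68 genes and no channel gene were called, and 4 channel genes had an unadjusted p under 0.05. Deviations of same-numbered arrays from their group means correlated at -0.27, -0.38 and -0.06. Those of the lens-rich arrays, knockout 2 and wildtype 1, correlated at 0.39. Lens RNA enters these correlations, so they cannot decide whether the numbers pair the arrays.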

Other observations

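One probe set carries the symbols Scn9a and Gm13629 together and was therefore not a member. Its log2 values were 5.89, 6.03 and 6.03 in knockout and 6.27, 6.08 and 6.33 in wildtype retina, which did not overlap. The log2 change was -0.24 (adjusted p = 0.436 in limma's test of all probe sets), whereas the probe set with the single symbol Scn9a had 0.03. The annotation does not say which of the 2 genes the probes measure.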
